A study of Rattus norvegicus with 6 samples.

Results

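The miR-181 family of microRNAs was followed in arterial and venous plasma of the same rats. Its 4 members on the array, rno-miR-181a-5p, rno-miR-181b-5p, rno-miR-181c-5p and rno-miR-181d-5p, were taken by name from the 758 rat microRNAs measured. Plasma came from 3 healthy, untreated male Sprague-Dawley rats aged 10 weeks. From each rat, arterial blood of the abdominal aorta and venous blood of the postcava were drawn into EDTA, and the plasma was centrifuged, filtered and hybridized to a single-colour Agilent array, so that 3 arterial and 3 venous arrays were paired by rat. Plasma holds RNA released by many tissues, and release from fewer cells cannot be told apart here from less RNA released per cell.

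MicroRNAs guide Argonaute proteins to messenger RNAs, mainly through the seed, the bases near their 5′ end that pair with the target. The miR-181 family is known best from lymphoid cells, where miR-181a tunes the sensitivity of developing T cells to antigen by repressing phosphatases of T cell receptor signalling. In vascular endothelium, miR-181b is known to dampen NF-κB signalling, and in heart muscle miR-181c has been found in mitochondria. Each hairpin precursor can release a microRNA from its 5p arm and another from its 3p arm.

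The mature RefSeq sequences are shown because the members share their seed and divide by the bases behind it. They are written 5′ to 3′, with the seed (bases 2 to 8) in capitals.
rno-miR-181a-5p: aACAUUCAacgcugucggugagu
rno-miR-181c-5p: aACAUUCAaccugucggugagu
rno-miR-181b-5p: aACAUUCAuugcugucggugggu
rno-miR-181d-5p: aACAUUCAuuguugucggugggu
Of 693 mature rat microRNA names in the RefSeq table, these 4 carry the seed ACAUUCA. Counted from 1 at the 5′ end, miR-181b-5p differs from miR-181a-5p by A9U, C10U and A21G. miR-181d-5p differs from miR-181b-5p by C12U alone, so that the pair share 22 of 23 bases. miR-181c-5p equals miR-181a-5p with the base at position 11 removed. By sequence, therefore, b lies with d and a with c.

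The genes are arranged in another way, with a beside b and c beside d. In the RefSeq annotation of GRCr8, the mature miR-181a-5p lies at chr13:52037081-52037103 on the plus strand in Mir181a-1 and miR-181b-5p at chr13:52037263-52037285 on the plus strand in Mir181b1. Both hairpins lie within the long noncoding RNA gene LOC108352541, and the nearest protein-coding gene is Ptprc, which encodes the leukocyte phosphatase CD45. A second copy of miR-181a-5p lies at chr3:43025601-43025623 on the plus strand in Mir181a2. The hairpin Mir181b2 on the same chromosome holds the sequence of miR-181b-5p. Mir181a2 and Mir181b2 lie inside Nr6a1, the gene of an orphan nuclear receptor, and inside the long noncoding RNA gene LOC120101539. miR-181c-5p at chr19:40888314-40888335 and miR-181d-5p at chr19:40888484-40888506, both on the plus strand, have Nanos3, a germ cell gene, as their nearest protein-coding neighbour.

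Per array, 137 to 175 of the 758 microRNAs were detected, and 13.2 to 16.7% of spots stood well above background. With 3 arrays a group, precision is limited by their number. Rats 1 and 2 shared a slide and rat 3 had another, each with arterial and venous arrays side by side, so that the slide separates neither the plasma types nor rat 1 from rat 2.

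Of the 4 members, 3 were detected in plasma and miR-181c-5p was not. Detection is the call that the array software makes for a microRNA on an array. miR-181a-5p was detected on all 3 arterial and on 2 venous arrays, and missed in the venous plasma of rat 1. miR-181b-5p was likewise detected on all 3 arterial and on 2 venous arrays, and missed in the venous plasma of rat 3. miR-181d-5p was detected on 2 arterial and 2 venous arrays. For comparison, 26.5% of the 758 microRNAs were detected on at least 1 array and 16.6% on all 6, and no member was among the latter. Each member has 2 probes with 8 spots each, or 96 spots over the 6 arrays. Of these, 38 were well above background for miR-181a-5p, 39 for miR-181b-5p, 21 for miR-181d-5p and 0 for miR-181c-5p. All 21 of miR-181d-5p were in rat 1, with 16 in arterial and 5 in venous plasma. On each array of rats 2 and 3 this member had 0.

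In background-subtracted intensity, before any scaling between arrays, the arterial samples of rats 1, 2 and 3 read 7.31, 9.74 and 15.0 for miR-181a-5p and the venous ones 4.83, 17.3 and 9.13. Its brightest arrays were thus the venous array of rat 2 and the arterial array of rat 3, and its dimmest were both arrays of rat 1. miR-181b-5p read 26.9, 8.67 and 8.78 in arterial and 10.7, 15.3 and 4.98 in venous plasma. Here the arterial array of rat 1 was the brightest, above the venous array of rat 2. miR-181d-5p read 28.4, 5.91 and 7.01 in arterial and 10.2, 8.95 and 3.82 in venous plasma. The arterial array of rat 1 stood above the others again, followed by the venous array of the same rat.

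The spread between spots was read within each rat, on the same unnormalized intensities. In the arterial plasma of rat 1 the spots of miR-181d-5p averaged 28.4 ± 2.58 (SD, 15 spots that were not flagged), from 23.6 to 33.0. In the venous plasma of that rat they averaged 10.2 ± 2.40 (SD, 12 spots), from 6.63 to 15.2, so that the spots did not overlap. Flagged spots are left out of these ranges. For miR-181b-5p the spots in rat 1 ran from 21.5 to 32.5 in arterial and from 8.31 to 13.6 in venous plasma, again without overlap. The arterial array of rat 1 was brighter over the microRNAs detected on all arrays, with a median ratio to the venous array of 1.55, against 2.78 for miR-181d-5p and 2.52 for miR-181b-5p. Taken probe by probe over the 6 probes of the 3 measured members, the arterial and venous spots did not overlap for 4 probes in rat 1, all higher in arterial plasma, for 3 in rat 2, all higher in venous plasma, and for 1 in rat 3, higher in arterial plasma. The median ratio over the microRNAs detected on all arrays was 0.819 in rat 2 and 1.78 in rat 3, so that each rat's array-wide ratio lay on the same side of 1. The share of all probes whose spots did not overlap within a rat was not determined, so these counts show nothing particular to the members. Spots of an array repeat the measurement of 1 plasma sample and are not replicates of the condition.

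**Figure D1:**
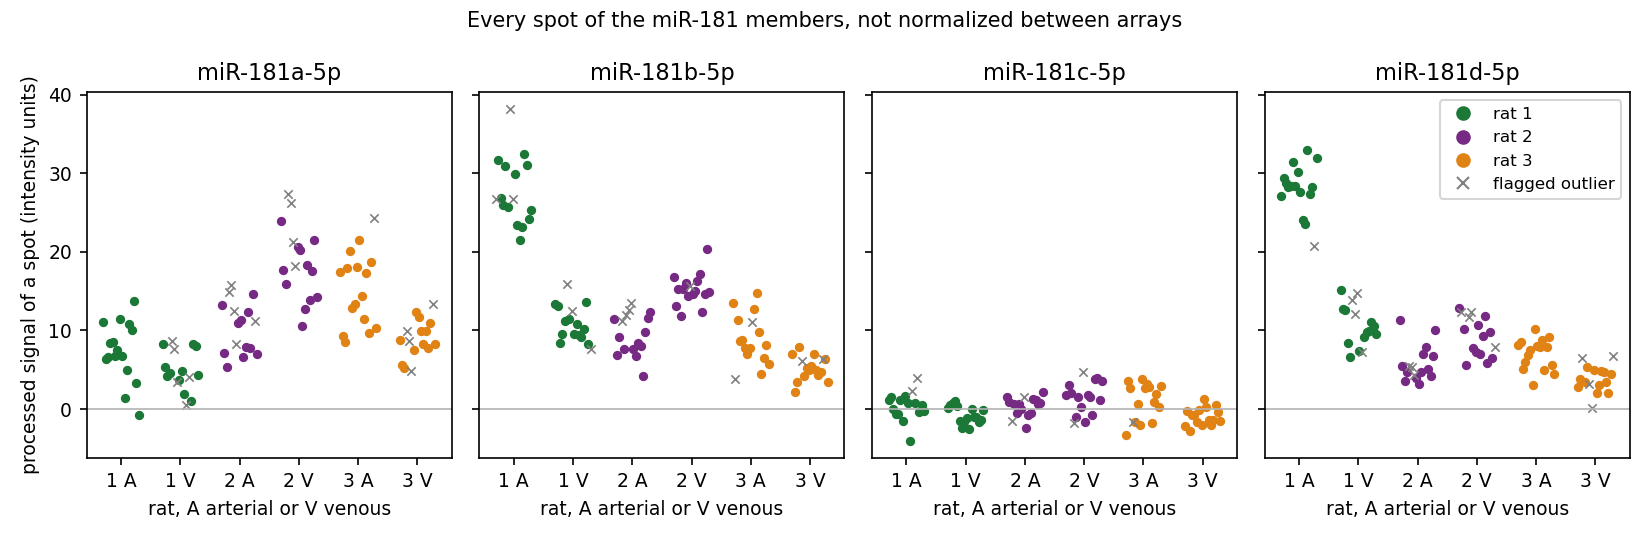
Background-subtracted signal of every spot of the 4 members (y axis, intensity units, not normalized between arrays) by array (x axis, rat number with A for arterial and V for venous); colours mark rats and crosses mark spots flagged as outliers. The spots of miR-181b-5p and miR-181d-5p in the arterial plasma of rat 1 lie above 20, those of miR-181a-5p in rat 1 lie below 14, and those of miR-181c-5p scatter around 0.

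miR-181c-5p stayed at background. Its mean intensity was -0.05, 0.40 and 1.21 in arterial and -0.75, 1.50 and -0.94 in venous plasma, and no difference between arterial and venous plasma is given for it. Of its 2 probes, A_26_P00001404 read 2.58 in the arterial plasma of rat 3 and 2.84 in the venous plasma of rat 2, and between -0.91 and 0.60 on the other 4 arrays. Those 2 arrays are the ones on which miR-181a-5p was brightest. The other probe lay between -1.10 and 0.50 on every array. Whether RNA of another member contributes to the signal of a probe was not tested, and this holds for miR-181b-5p and miR-181d-5p too, whose sequences differ at 1 base.

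The 3p arms of the same hairpins were not detected either. All 6 of them (rno-miR-181a-1-3p, rno-miR-181a-2-3p, rno-miR-181b-1-3p, rno-miR-181b-2-3p, rno-miR-181c-3p and rno-miR-181d-3p) are on the array, 0 of the 6 were detected on any array, and 2 of their 576 spots were well above background. Their mean intensities lay between -2.44 and 2.73. None of the 5 that the RefSeq table lists carries the seed of the 5p members.

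The comparison of the study asks whether microRNA levels differ between arterial and venous plasma. None of the measured miR-181 members differed between them beyond the spread of the differences within rats. For each of these members the arterial and venous values overlapped, as they did for nearly all microRNAs (the groups did not overlap for 1.58% of the 758). Intensities were quantile normalized between arrays for this comparison and are given as log2. Differences are arterial minus venous and were tested in limma with the rat as a block.

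On this scale miR-181a-5p, the member best known from T cells, had arterial values of 2.52, 3.09 and 4.03 and venous values of 2.70, 3.73 and 4.01 for rats 1, 2 and 3. The arterial mean was 3.22 ± 0.77 and the venous mean 3.48 ± 0.69 (SD, n = 3 each). The differences within rats were -0.18, -0.63 and 0.03, so that 2 rats were lower and 1 was marginally higher in arterial plasma. The mean log2 difference was -0.26 (standard error 0.19, 95% interval -1.0 to 0.47, adjusted p = 1 from limma). Without rat 2 it was -0.08 and without rat 3 it was -0.41, and its sign turned on unnormalized arrays (0.16). The software's total gene signal, which is 0.1 wherever a member was not detected, gave 0.11. The venous sample of rat 1 holds that fill value, which was raised to the floor of 1.

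miR-181b-5p, the member studied in endothelium, was 4.44, 2.94 and 3.44 in arterial and 3.83, 3.49 and 3.22 in venous plasma. The means were 3.61 ± 0.76 and 3.51 ± 0.30 (SD, n = 3 each). Rats 1 and 3 were higher in arterial plasma, by 0.61 and 0.22, and rat 2 differed by -0.55. The mean log2 difference was 0.09 (standard error 0.33, 95% interval -1.20 to 1.38, adjusted p = 1 from limma). Leaving out rats 1, 2 and 3 in turn gave -0.17, 0.42 and 0.03. The total gene signal gave 1.06, but there the undetected venous sample of rat 3 holds the fill value of 0.1, raised to the floor of 1.

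miR-181d-5p was 4.64, 2.44 and 3.03 in arterial and 3.65, 2.61 and 2.64 in venous plasma. The means were 3.37 ± 1.14 and 2.97 ± 0.59 (SD, n = 3 each). Rats 1, 2 and 3 differed by 0.99, -0.18 and 0.39, so that rat 2 went against the others. The mean log2 difference was 0.40 (standard error 0.32, 95% interval -0.87 to 1.67, adjusted p = 1 from limma). Without rat 1 it was 0.11, and without rat 2 it was 0.69. It was 0.16 with the 75th percentile of detected microRNAs as the scale and 0.22 with the brightest probe alone. The authors' quantile-normalized table gave 0.09, and arrays without normalization gave 0.58. In the authors' table the undetected miR-181c-5p read 37.21 to 41.25, so that background remains in it and log2 differences are smaller there.

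**Figure D2:**
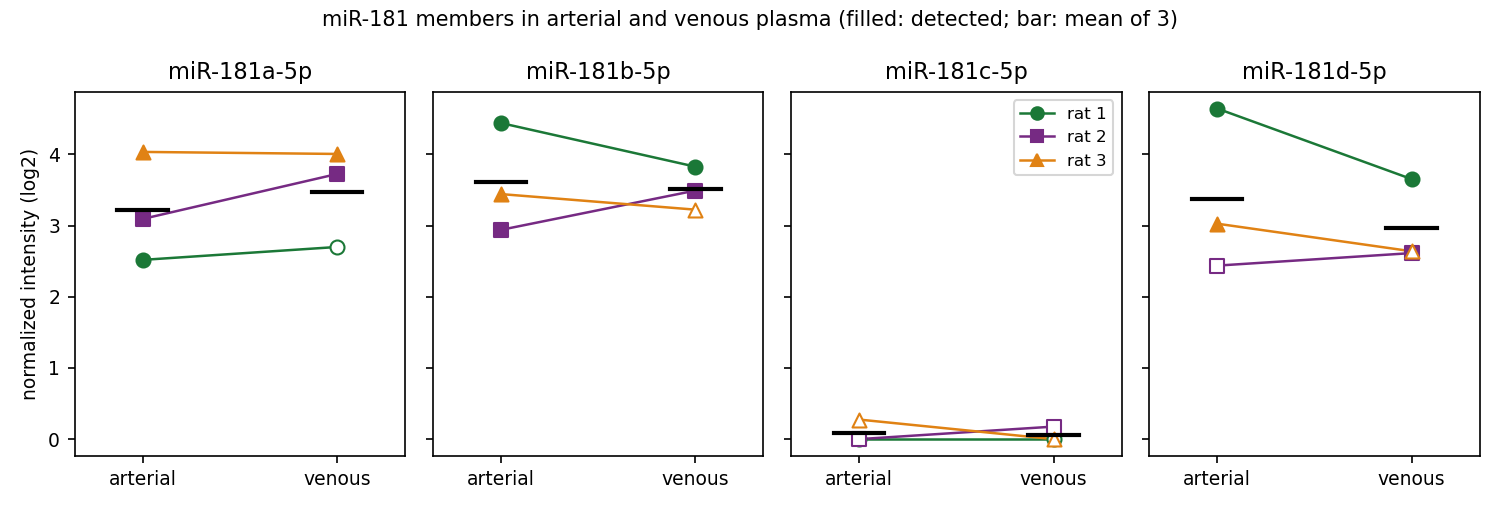
Quantile-normalized log2 intensity (y axis) of each member in arterial and venous plasma (x axis), with a line for each rat, filled symbols where the microRNA was detected and black bars for the mean of 3 samples. Rat 1 is lowest for miR-181a-5p and highest for miR-181b-5p and miR-181d-5p, and the lines of the 3 rats do not all slope the same way for any of these members.

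At the study's unadjusted cutoff of 0.025, limma called 0 of the 4 members, against 0.792% of the 758 microRNAs. At an unadjusted p of 0.05 it also called 0 of the 4, against 1.58% of all, and the methods' t-test, a plain paired test, called 0 of the 4 at the cutoff, against 0.528%. No member moved in the same direction in all 3 rats, against 6.33% of the 758. Of the 758, 378 were at the floor on every array and could show no direction. After adjustment, limma called 0 of the 758 at 0.05. Of the 8 probes of the members, fitted among all 1806 probes, 0 were past the cutoff of 0.025, against 1.22% of the probes. These include A_26_P00001405 of miR-181c-5p, which was at the floor on every array and could not be called. The counts over 4 members likewise include miR-181c-5p, which was not detected. The width of the intervals leaves room for differences of more than 1 on the log2 scale for miR-181b-5p and miR-181d-5p. When only the 207 microRNAs above the floor of 1 on every array were fitted, the 95% intervals narrowed to -0.86 to 0.34 for miR-181a-5p, -0.62 to 0.81 for miR-181b-5p and -0.31 to 1.11 for miR-181d-5p, and 0 of these 3 members were past the cutoff in limma, against 2.42% of the 207.

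The 3 measured members also varied between rats, with rat 1 lowest for one member and highest for the others. No member passed an adjusted p of 0.05 for the rat in limma. miR-181a-5p had a mean over both samples of 2.61 in rat 1, 3.41 in rat 2 and 4.02 in rat 3. Both samples of rat 1 were below the other 4, which held for 17.4% of the 207 microRNAs above the floor on every array. miR-181b-5p had means of 4.13, 3.22 and 3.33 and miR-181d-5p of 4.15, 2.53 and 2.83 in rats 1, 2 and 3. For both of these the samples of rat 1 were above the other 4, which held for 15% of the 207.

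Of 10 settings of scaling, summary and floor, miR-181a-5p and miR-181d-5p kept the position of rat 1 in 10 and miR-181b-5p in 8, although the lower floor gives these members the same values by construction. Without normalization between arrays, the venous sample of rat 1 was 3.42 for miR-181b-5p, under the 3.93 of the venous sample of rat 2. With the brightest probe alone, A_26_P00001410, it was 3.65 against 3.75. Among 758 microRNAs in limma, the F test of the rat, which was chosen after the values were seen, gave unadjusted p of 0.0403 for miR-181a-5p, 0.228 for miR-181b-5p and 0.0822 for miR-181d-5p, so that 0 of the 4 members were past 0.025, against 3.43% of all. Fitted in limma over the 207 alone, the p was 0.00944 for miR-181a-5p, 0.0833 for miR-181b-5p and 0.00858 for miR-181d-5p (adjusted p of 0.068, 0.213 and 0.0666). In that fit 20.8% of the 207 were past 0.025, so that a difference between rats was common among them, and 4.35% passed an adjusted p of 0.05, with 0 members among them.

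The difference between 2 members on the same array does not change when an array is scaled as a whole, though quantile normalization, used here, can stretch it. Its level depends on how bright each probe is, so that only its changes between samples are read. miR-181b-5p minus miR-181a-5p was 1.92, -0.15 and -0.59 in arterial and 1.13, -0.23 and -0.78 in venous samples, in the order of rats 1, 2 and 3. Both samples of rat 1 stood above the other 4, which follows where rat 1 is lowest for the one member and highest for the other. miR-181d-5p minus miR-181a-5p was 2.13, -0.66 and -1.01 in arterial and 0.95, -1.11 and -1.37 in venous plasma. This too placed both samples of rat 1 above the others, for the same reason. miR-181d-5p minus miR-181b-5p moved over a smaller range, from 0.20 in the arterial plasma of rat 1 to -0.88 in the venous plasma of rat 2.

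In these quantile-normalized values, all 3 differences were higher in arterial than in venous plasma in the 3 rats, a pattern that depended on the values used. The difference of b minus a was higher by 0.79, 0.08 and 0.19 in rats 1, 2 and 3 (mean 0.35 ± 0.38, SD, n = 3). That of d minus a was higher by 1.17, 0.46 and 0.36 (mean 0.66 ± 0.44, SD, n = 3), and that of d minus b by 0.38, 0.38 and 0.17 (mean 0.31 ± 0.12, SD, n = 3). For each, the exact permutation test within rats gave a two-sided p of 0.25, the smallest that 3 pairs allow, and 0.25 after Benjamini-Hochberg adjustment over the 3. The 3 differences are not independent, because each is made of the other two. They also use values that were not detected, with 0 spots well above background. These were miR-181a-5p in the venous plasma of rat 1 and miR-181b-5p in that of rat 3. For miR-181d-5p they were the arterial plasma of rat 2 and the venous plasma of rat 3. In the venous plasma of rat 3, both values of d minus b were thus undetected. In the arterial plasma of rat 3 and the venous plasma of rat 2, miR-181d-5p was called detected, but also with 0 spots well above background. Exact differences on all these arrays are uncertain. Without normalization between arrays the means were 0.28, 0.42 and 0.14, and all 3 rats kept the sign. With the brightest probe alone the means were 0.32, 0.36 and 0.03. There 2 of 3 rats were higher in arterial plasma for b minus a and for d minus b. With flagged spots kept, 2 of 3 rats were higher for d minus b and all 3 for b minus a and d minus a. The same counts held with a background correction that adds 50 to every intensity. In the authors' quantile-normalized table, where remaining background makes log2 differences smaller, the means were 0.10, 0.16 and 0.06. There 2 of 3 rats were higher for b minus a and for d minus a. With the total gene signal the means were 0.95, 0.46 and -0.49, and 2, 2 and 1 of 3 rats were higher in arterial plasma. That signal is 0.1, raised to the floor of 1, wherever a member was not detected, so these means rest in part on a fill value. They cannot decide whether d minus b turned. Without rat 1 the mean of b minus a was 0.14 and that of d minus a 0.41.

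**Figure D3:**
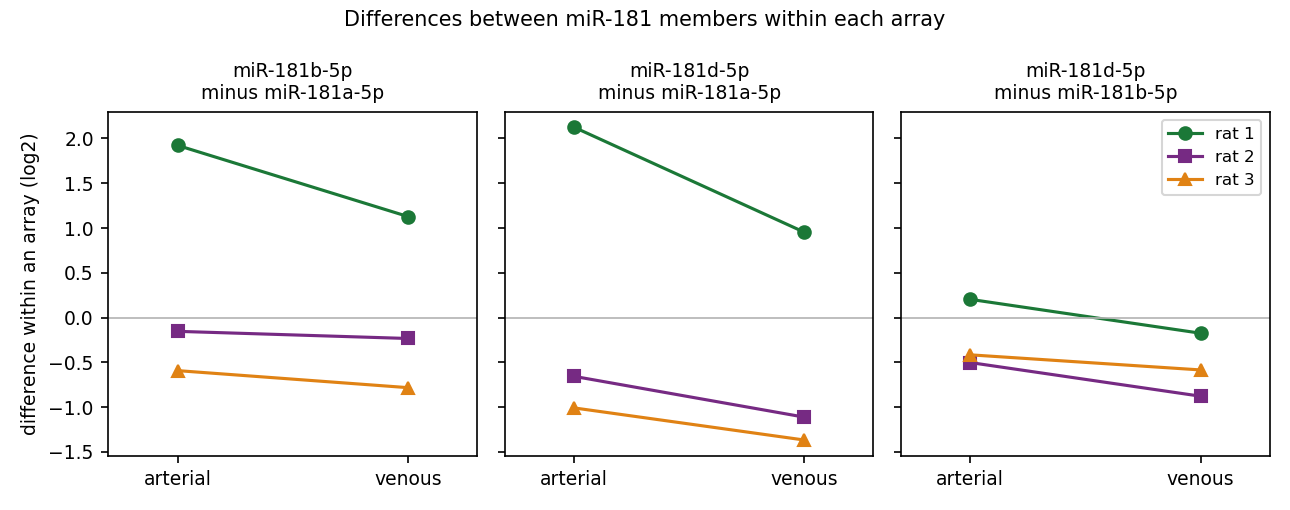
Log2 difference between 2 members on the same array (y axis) in arterial and venous plasma (x axis), with a line for each rat. Rat 1 lies above the other rats in each panel, and in these quantile-normalized values every line falls from arterial to venous plasma.

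The probes of a member were read one by one. For miR-181d-5p the normalized log2 values in rat 1 were 4.51 in arterial and 3.50 in venous plasma for the probe A_26_P00001802 and 4.67 and 3.89 for A_26_P00001803, and all other samples were between 2.21 and 3.03. For miR-181a-5p both probes were lowest in the 2 samples of rat 1, at 2.02 and 2.14 for A_26_P00001407 and at 2.87 and 3.07 for A_26_P00002586. For miR-181b-5p the probes parted in the venous plasma of rat 1. There A_26_P00001409 was at 3.91, above the 3.42 of the venous plasma of rat 2, while A_26_P00001410 was at 3.62, under the 3.64 of the arterial plasma of rat 3.

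The patterns of the 3 measured members across the 6 arrays were set against each other, and rat 1 carried most of the contrast between them. Each microRNA was centred on its mean over the 6 arrays, and the root mean square difference of the log2 values was taken as the distance between 2 patterns, over arrays that share rats in pairs. It was 0.34 between b and d, 0.98 between a and b and 1.28 between a and d. Of the 126 microRNAs detected on all arrays, 3 were nearer to miR-181d-5p than miR-181b-5p was, and 8 were nearer to miR-181b-5p than miR-181d-5p was. By contrast 105 of the 126 were nearer to miR-181a-5p than miR-181b-5p was, and 119 were nearer to it than miR-181d-5p was. Without the arrays of rat 1, and with each microRNA centred again, the distances were 0.17 between b and d, 0.26 between a and b and 0.26 between a and d, and 10 of the 126 were then nearer to miR-181a-5p than either of the other two was. From the other side, 28 were nearer to miR-181b-5p and 35 nearer to miR-181d-5p than miR-181a-5p was, against 13 and 7 for b and d with each other. The pairs with miR-181c-5p could not be read, and the part of reading between the probes of b and d in their short distance was not tested.

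Of the 126, the nearest to miR-181a-5p were rno-miR-215 at a distance of 0.23, rno-let-7d-5p at 0.26 and rno-miR-500-3p at 0.29, against a median of 0.65. rno-miR-215, a relative of miR-192, was 4.01, 5.18 and 5.94 in arterial and 4.71, 5.34 and 5.57 in venous samples, with rat 1 lowest in both. The nearest to miR-181b-5p were rno-miR-134-5p at 0.23, rno-miR-150-3p at 0.24 and rno-miR-211-3p at 0.25, against a median of 0.63. The nearest to miR-181d-5p were rno-miR-149-3p at 0.27, rno-miR-292-5p at 0.27 and rno-miR-3593-3p at 0.33, against a median of 0.87. rno-miR-149-3p was 6.61, 4.82 and 4.76 in arterial and 5.90, 4.86 and 5.18 in venous plasma, with rat 1 highest in both. All these neighbours were picked for the smallest distance over the same arrays. Their distances under the median and the shared place of rat 1 follow from that choice.

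**Figure D4:**
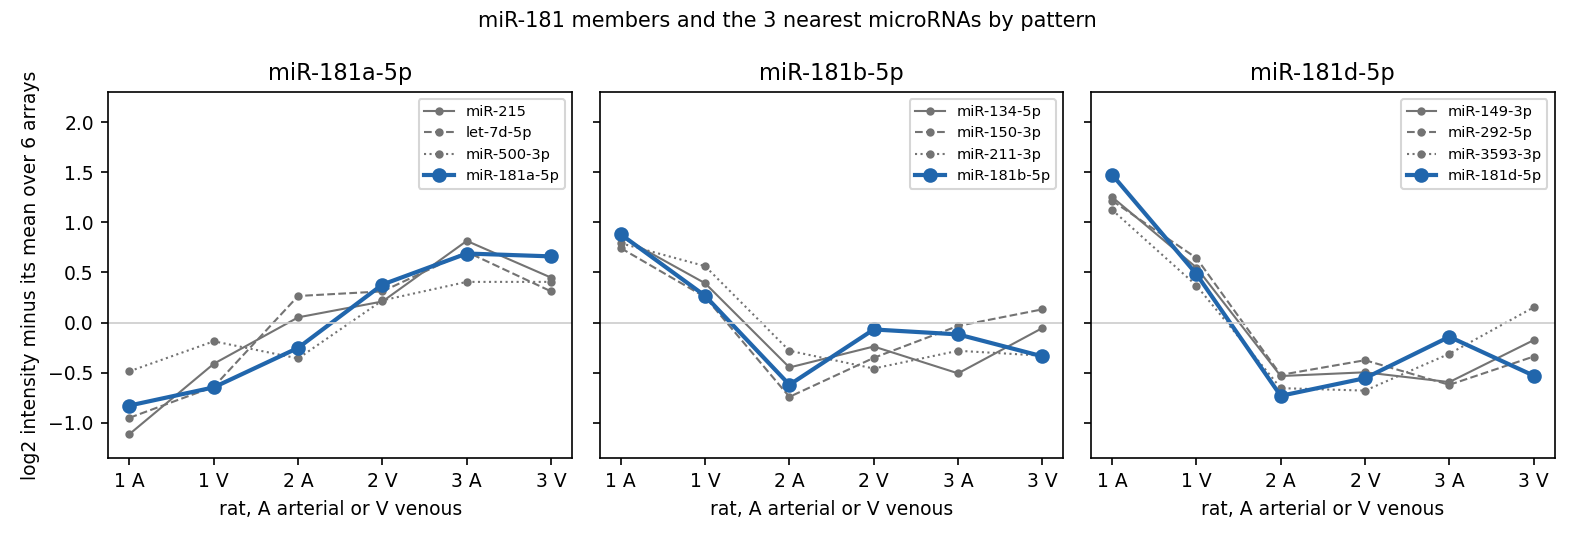
Log2 intensity minus its own mean over the 6 arrays (y axis) by array (x axis, rat number with A for arterial and V for venous) for 3 members in blue and, in grey, the 3 microRNAs nearest to each; lines join arrays only to guide the eye. miR-181a-5p and its neighbours are lowest in the arterial plasma of rat 1. miR-181b-5p, miR-181d-5p and their neighbours are highest there. The neighbours were chosen for this likeness over the same arrays.

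MicroRNAs known from other sources were summed by list, with no test of the rat. The summed normalized intensity of 3 liver microRNAs, of which miR-122 is the defining one, was 73.3 in arterial and 93.2 in venous plasma of rat 1 and between 161 and 585 in the other 4 samples, and 2 of the 3 were detected on at least 3 arrays. For 4 platelet and myeloid microRNAs, all of them detected on every array, the sum was 256 and 374 in rat 1 and between 385 and 611 in the others. For 5 lymphocyte microRNAs, 4 of them detected on at least 3 arrays, it was 372 and 434 in rat 1 and between 338 and 739 in the others. For 5 erythrocyte microRNAs, 4 of them detected on every array, it lay between 1697 and 2385, with 2142 and 2265 in rat 1. The sum of 4 muscle microRNAs, none detected on 3 arrays, lay between 0 and 9.03. rno-miR-342-5p and rno-miR-208a-3p were at the floor on every array. At the unadjusted cutoff of 0.025, limma called 1 listed microRNA between arterial and venous plasma, rno-miR-342-3p of the lymphocyte list, against 0.792% of the 758, and 0 after adjustment. Single bright microRNAs carry these sums, so the listed microRNAs detected on at least 3 arrays were also read one by one. Both samples of rat 1 were below the other 4, as for miR-181a-5p, in 2 of 2 of the liver list, 2 of 4 of the platelet and myeloid list, 2 of 4 of the erythrocyte list and 1 of 4 of the lymphocyte list, against 17.4% of the 207 microRNAs above the floor on every array. The part of these sources in the patterns of the members was not tested.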

How the data were processed

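The authors hybridized the RNA of each plasma sample to 1 single-colour (Cy3) Agilent rat microRNA array and deposited spot intensities from Feature Extraction (version 11.0.1.1 per the submitters' processing notes, 10.7.3.1 per the file headers). The processed intensity is background-subtracted and not normalized between arrays. A second deposited table holds intensities that the authors quantile normalized with GeneSpring, used here as an alternative.

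Controls and outlier-flagged spots, the latter 8.72 to 10.4% of an array, were not used. Processed intensities were averaged over the spots of a probe and the probes of a microRNA, quantile normalized over 758 microRNAs, raised to a floor of 1 and put on the log2 scale. Arterial and venous samples, grouped by their labels and paired by the labelled rat number, were compared with limma 3.58.1 in R 4.3.3 (lmFit, eBayes, rat as block, two-sided). Of the microRNAs, 378 were at the floor on every array. The prior of limma had 0.198 degrees of freedom over all microRNAs and 3.99 over the 207 above the floor on every array. Samples of the same rat deviated together from their group means (Pearson r of 0.799, 0.686 and 0.635 for rats 1, 2 and 3, across 126 microRNAs, which are not independent replicates). Exact permutation tests used Python 3.11.15. The steps were tested on simulated data.

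Named microRNAs are the members, the other arms of their hairpins, marker microRNAs detected on at least 3 arrays and, for each member, the 3 detected microRNAs nearest in pattern. The rules for nearest patterns and for differences between members asked for members detected on all arrays. Since there were none, members above the floor on all arrays were taken, a choice made after the data were seen. rno-miR-342-5p and rno-miR-208a-3p are named outside the rule. Members, lists and tests were chosen with earlier results of these data known. In sums over a list, values at the floor counted as 0. Sequences and positions come from RefSeq tables of GRCr8, while the array design names another build. All 4 members matched by name, and of the 6 other arms 5 did. Probe sequences were not used here. The alternatives changed the scaling, the intensity, the summary of probes, the floor, the microRNAs fitted, the block, the test and the rats.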

Additional observations from a re-analysis of the deposited data

How the results depend on the processing

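Under the 17 alternatives for each of miR-181a-5p, miR-181b-5p and miR-181d-5p, 0 members were past the cutoff of 0.025, and the smallest adjusted p was 0.735 (the methods' t-test for miR-181a-5p and miR-181d-5p). Of the 17, 6 change the error or the microRNAs fitted and leave the differences as they are, and 11 can move them. Under these 11 the log2 difference of miR-181d-5p was positive, from 0.07 to 0.69. That of miR-181a-5p changed sign under 2, to 0.16 without normalization between arrays, which shifts the median of the microRNAs detected on all arrays by 0.40, and to 0.11 with the total gene signal. With 1 rat left out it ranged from -0.41 to -0.08. That of miR-181b-5p ranged from -0.17 (without rat 1) to 0.42 with 1 rat left out, and reached 1.06 with the total gene signal. The total gene signal is 0.1, raised to the floor of 1, where a member was not detected. Its values, including those below for differences between members, rest in part on this fill. Other causes were not tested. The 0.07 of miR-181d-5p came from a background correction that adds 50 to every intensity, which makes log2 differences smaller. The lowest values below for b minus a and d minus a came from it too. Without the rat as a block, the unpaired differences were the same by construction, -0.26, 0.09 and 0.40, with standard errors of 0.58, 0.46 and 0.73, and this changed no call. Fitting only the microRNAs detected on all arrays gave no value, since no member is among them. The mean differences between 2 members within an array ranged from 0.07 to 0.95 for b minus a, from 0.09 to 0.56 for d minus a and from -0.49 (total gene signal) to 0.14 for d minus b over 6 alternatives of the values. With 1 rat left out they ranged from 0.14 to 0.49, from 0.41 to 0.81 and from 0.27 to 0.38, where the sign could not change. The fit over the 207 microRNAs, the patterns without rat 1 and, for differences between members, the alternatives of the values other than the brightest probe were chosen after seeing the data. At an unadjusted threshold of 0.05, limma called 1 member, miR-181a-5p, with the 75th percentile of detected microRNAs as the scale, against 2.37% of the 758 under that scale. Most spots of the members were not well above background, which limits every difference.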
